A study of Mus musculus with 2 samples.

Results

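Cartilage cells were 2572 of 27041 kept cell barcodes (9.51%) in single-cell RNA sequencing of mouse tissue labelled brain at stage E12.5. A kept barcode had at least 1000 unique molecular identifiers (UMIs, each tagging 1 captured transcript), at least 500 genes and at most 20% mitochondrial UMIs. A kept barcode counted as a cartilage cell when it held a UMI of at least 3 of the 6 cartilage genes Matn1, Cytl1, Cnmd, Acan, Hapln1 and Col9a1, and of no more than 1 of the 4 endothelial genes Pecam1, Cdh5, Kdr and Flt1. There was 1 library of the genotype Foxq1iECKO, with 1090 cartilage cells, and 1 library of the genotype Foxq1flox/flox, with 1482 cartilage cells. The study concerns endothelial FOXQ1, a forkhead transcription factor, in the vessels of the developing brain. The labels do not spell out the name Foxq1iECKO and do not give the Cre driver, the inducing agent, the deleted part of the gene or the number of embryos pooled. Both samples are labelled as endothelial cells, collected with beads against CD31, an endothelial surface protein, so the cartilage cells are cells that remained beside the intended ones. With 1 library per genotype no test between genotypes was possible: intervals are exact 95% intervals for counting error only, and no difference between genotypes has a replicate check.

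The Foxq1iECKO library held 15108 barcodes with 72445925 UMIs and the Foxq1flox/flox library 15837 barcodes with 76580165 UMIs, of which 13108 and 13933 were kept. The libraries shared 270 barcodes, 189 of them kept and 1 of them a cartilage cell. Cartilage cells had a median of 4620 UMIs and 2273 genes in the Foxq1iECKO library, and of 4855 UMIs and 2356 genes in the Foxq1flox/flox library. In the endothelial class, barcodes with at least 3 of the 4 endothelial genes, Foxq1 stood at 276 CPM (the UMIs of a gene per 1000000 UMIs of all genes in the same cells) in Foxq1iECKO cells and 483 CPM in Foxq1flox/flox cells, a log2 ratio of -0.81 [-0.85, -0.76]. Log2 ratios between genotypes are Foxq1iECKO over Foxq1flox/flox throughout. The deleted part of the gene is not known here, so this level checks the labels only as far as the deletion touches the counted 3′ end. Among cartilage cells, Xist, which is transcribed from the inactive X chromosome, had 257 CPM in the Foxq1iECKO library and 669 CPM in the Foxq1flox/flox library, and the Y-linked Ddx3y had 192 CPM in the Foxq1iECKO and 88.4 CPM in the Foxq1flox/flox library. Their log2 ratios were -1.38 and 1.12 in cartilage cells, and -1.18 and 0.75 in mesenchyme. They were smaller in the other classes: -0.38 and 0.17 in neurons, -0.42 and 0.35 in macrophages, and -0.55 and 0.27 in endothelial cells. Sex of the embryos and genotype cannot be told apart in any comparison below.

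Cartilage is a stiff tissue without vessels of its own, made by chondrocytes that secrete a gel of sulfated proteoglycans held by a mesh of fine collagen fibrils. The transcription factor SOX9 is needed for cells to become chondrocytes, and SOX5 and SOX6 act with it on the genes of the matrix. In the embryonic head, cartilage forms the base of the skull, the capsules around nose and ear and the core of the jaw, from neural crest and mesoderm, and part of it is later replaced by bone. The brain itself makes no cartilage.

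How far the rule reached was described by the number of cartilage genes detected. Of the cartilage cells, 501 in the Foxq1iECKO library (46.0%) and 762 in the Foxq1flox/flox library (51.4%) held all 6. Col2a1, the gene of the main cartilage collagen, was not part of the rule and stood higher with each further gene detected. In the Foxq1iECKO library it had 263 CPM in the 214 barcodes just outside the rule, with 2 of the cartilage genes, 658 CPM in the 140 cells just inside, with 3, and 2930 CPM in cells with all 6. In the Foxq1flox/flox library the corresponding levels were 277 CPM in 197 barcodes, 719.6 CPM in 136 cells and 2775 CPM. Col1a1, a collagen of fibroblasts and bone, ran the other way: cells with 3 cartilage genes had 8063 CPM and cells with all 6 had 1032 CPM in the Foxq1iECKO library, against 5288 CPM and 458 CPM in the Foxq1flox/flox library. The cells at the edge of the rule thus held more fibroblast collagen and less cartilage collagen than its core.

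The cells were chosen by the UMIs of these 6 cartilage and 4 endothelial genes, whose levels are therefore a description. They were set beside mesenchyme, barcodes of the same libraries with at least 3 of the fibroblast-type genes Pdgfra, Twist1, Twist2, Prrx1, Dcn, Lum and Crabp1 that met neither the cartilage rule nor another gate (1976 Foxq1iECKO and 1958 Foxq1flox/flox cells). Matn1, a matrilin that links matrix fibres, had 1437 CPM in Foxq1iECKO and 1238 CPM in Foxq1flox/flox cartilage cells, against 2.85 CPM and 1.91 CPM in the mesenchyme of the same libraries. Acan, the core protein of the main cartilage proteoglycan, had 551 CPM and 558 CPM in cartilage cells, against 4.75 CPM and 4.77 CPM in mesenchyme. Hapln1, the link protein that ties aggrecan to hyaluronan, had 2049 CPM and 2629 CPM, against 23.0 CPM and 10.8 CPM. Col9a1, a collagen on the fibril surface, had 3837 CPM and 3599 CPM, against 88.3 CPM and 65.0 CPM. Cnmd, the secreted growth and vessel regulator chondromodulin, had 954 CPM and 944 CPM, and Cytl1, a secreted cytokine-like protein of cartilage, had 673 CPM and 770.0 CPM. Between genotypes the log2 ratios of these 6 genes ran from -0.36 for Hapln1 to 0.21 for Matn1, and none passed the size limit used below.

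Genes of chondrocytes that the rule did not use were high in the same cells. In the Foxq1iECKO library Col2a1 had 2253 CPM in cartilage cells and 54.5 CPM in mesenchyme, a log2 ratio of 5.37 [5.24, 5.50]. In the Foxq1flox/flox library it had 2296 CPM in cartilage cells and 45.6 CPM in mesenchyme, a log2 ratio of 5.65 [5.52, 5.79]. Sox9 had 1946 CPM and 2104 CPM in cartilage cells, against 275 CPM and 214 CPM in mesenchyme. Its partners lay further from mesenchyme in proportion: Sox5 had 713 CPM and 960.1 CPM, against 59.9 CPM and 56.0 CPM, and Sox6 had 523 CPM and 641 CPM, against 64.4 CPM and 53.1 CPM. After each cell was thinned to 2000 UMIs, which left out 66 Foxq1iECKO and 70 Foxq1flox/flox cartilage cells, a Col2a1 UMI was found in 90.1% and 92.2% of cartilage cells, in 6.86% and 7.04% of mesenchyme and in 2.68% and 1.86% of neuron-gated cells. Neurons should lack Col2a1, but a UMI of Mki67, a gene of cycling cells, was found in 24.8% and 18.3% of neuron-gated cells. The gate may thus hold other cells, and whether its Col2a1 share is background alone was not tested. Without thinning the Col2a1 shares were 96.7% and 97.4% in cartilage cells and 5.80% and 4.50% in neuron-gated cells.

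**Figure D1:**
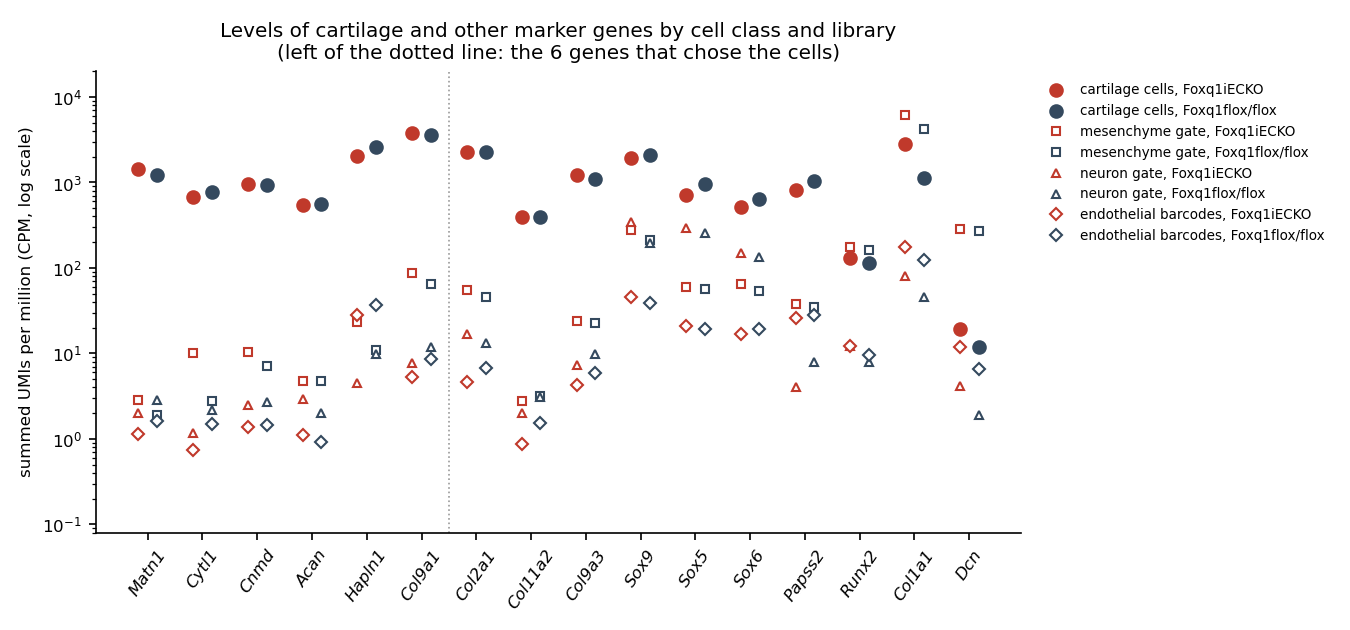
Summed level in CPM, on a log axis, of the 6 rule genes, left of the dotted line, and of 10 other genes, for 4 cell classes (marker shape) in each library (colour), with values under 0.1 CPM drawn at 0.1. Col2a1, Sox9, Sox5 and Sox6 lie above the mesenchyme, neuron and endothelial classes in both libraries, and Col1a1 and Dcn below mesenchyme.

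Promoter windows show the letters in front of these genes. RefSeq (GRCm38.p6) windows of 250 bases before the transcription start were searched on both strands for short stretches that SOX-family proteins are known to bind. These were ACAAAG, its variant ACAATG, and the stretch AACAAT, of which the second and the third overlap where they run together. Matn1 is shown as a gene of the rule, and Sox5 and Scin as genes outside it that stood far above mesenchyme, all 5′ to 3′ on the strand of the gene with any match in capitals; Matn1 (plus strand, chr4:130944135-130944384) held none, Sox5 (minus strand, chr6:143947107-143947356) held 1 at base -154 and Scin (minus strand, chr12:40134229-40134478) held 1 at base -143.
Matn1: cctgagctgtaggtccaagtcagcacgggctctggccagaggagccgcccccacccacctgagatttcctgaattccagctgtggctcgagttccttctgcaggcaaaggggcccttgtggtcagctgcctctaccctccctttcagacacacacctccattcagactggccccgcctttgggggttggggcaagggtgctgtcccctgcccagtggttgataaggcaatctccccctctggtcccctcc
Sox5: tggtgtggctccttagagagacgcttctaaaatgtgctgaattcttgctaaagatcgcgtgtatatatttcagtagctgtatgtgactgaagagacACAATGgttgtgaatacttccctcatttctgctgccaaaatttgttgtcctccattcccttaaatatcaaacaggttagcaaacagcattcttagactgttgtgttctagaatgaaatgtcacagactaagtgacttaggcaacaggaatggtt
Scin: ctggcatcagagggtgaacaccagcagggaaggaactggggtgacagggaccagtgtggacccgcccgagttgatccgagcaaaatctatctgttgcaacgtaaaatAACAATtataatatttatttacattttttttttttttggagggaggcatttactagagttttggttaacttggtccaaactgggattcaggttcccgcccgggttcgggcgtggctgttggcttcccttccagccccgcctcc
A match was found in the windows of 0 of the 6 rule genes and of 5 of the 19 leading genes below that had a window (26.3%), against 32.9% of all 27025 genes with a window. Counted by window, 29.6% of all 32851 held one. A match was thus no more common among the leading genes than among all genes, and no match says only that these letters are not in these 250 bases.

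Over all genes at 10 CPM or more in cartilage cells or mesenchyme, 828 of 9239 (8.96%) were higher by size in cartilage cells in both libraries and 1153 (12.48%) were lower. Higher or lower by size means a ratio of at least 1.5 with a counting interval that excludes 1; it is a rule of size, not a test. Of 101 listed genes for cartilage matrix, its transcription factors and its sulfated sugars, 78 were measured, and 38 of these were higher and 15 lower in both libraries. These lists were drawn up around the cell type, so their direction is not independent of its choice.

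The fibril collagens carried the largest counts. Col11a1, a collagen that sets the width of cartilage fibrils, had 6021 CPM in Foxq1iECKO and 5827 CPM in Foxq1flox/flox cartilage cells, against 343 CPM and 231 CPM in mesenchyme. Its partner chain Col11a2 had 397 CPM and 394 CPM, against 2.75 CPM and 3.18 CPM, the widest gap of the collagens. Col9a2 and Col9a3, the other chains of collagen IX, had log2 ratios over mesenchyme of 4.53 and 5.68 in the Foxq1iECKO library and 5.15 and 5.59 in the Foxq1flox/flox library. Col27a1, a fibril collagen of the growth plate, had ratios of 3.18 and 3.42. Of the 9 measured cartilage collagens 6 were higher, and the 3 lower ones were the collagen VI chains Col6a1, Col6a2 and Col6a3. The median of the 9 was 4.13 in the Foxq1iECKO library and 4.65 in the Foxq1flox/flox library, while the median over all genes was -0.04 and -0.06.

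On the cartilage matrix list, which holds the 6 higher collagens again but not the collagen VI chains, 15 of 26 genes were higher. Matn3 had 131 CPM in Foxq1iECKO and 95.7 CPM in Foxq1flox/flox cartilage cells, against 0.95 CPM and 1.17 CPM in mesenchyme. Matn4 had 256 CPM and 336 CPM, against 8.13 CPM and 11.2 CPM. Both encode matrilins, as Matn1 does. Chad, a leucine-rich matrix protein that chondrocytes bind, had 18.8 CPM and 24.5 CPM, against 0.63 CPM and 0.21 CPM. Scrg1, a secreted protein of chondrogenic cells, had 29.7 CPM and 41.7 CPM, and Mia, a small secreted cartilage protein, had 61.4 CPM and 70.1 CPM. The 5 lower genes were those of softer connective tissue: Vcan, Bgn, Dcn, Tnc and Matn2, with Dcn at 19.5 CPM and 11.9 CPM, against 286 CPM and 267 CPM in mesenchyme. Comp, a matrix protein of later cartilage and tendon, was close to absent at 1.68 CPM and 0.25 CPM.

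The leading genes by distance from mesenchyme, taken at 50 CPM or more in both libraries and outside the rule, were headed by Susd5, which encodes a protein with a sushi domain. It had 382 CPM in Foxq1iECKO and 454 CPM in Foxq1flox/flox cartilage cells, against 2.96 CPM and 3.18 CPM in mesenchyme, log2 ratios of 7.01 [6.48, 7.61] and 7.16 [6.64, 7.73]. Scin, an actin-severing protein, followed the collagen Col11a2 and the matrilin Matn3 with 183 CPM and 184 CPM, against 2.64 CPM and 1.80 CPM. Tgfa, a ligand of the EGF receptor, had 77.3 CPM and 99.9 CPM, against 1.16 CPM and 3.18 CPM. Stk26, a kinase, had 415 CPM and 547 CPM, against 20.8 CPM and 18.8 CPM. Prkg2, the cyclic GMP kinase that takes part in growth plate cartilage, had 145 CPM and 192 CPM, against 12.04 CPM and 14.1 CPM. Sorbs2 and Kank1, adaptors of the cytoskeleton, and Rflna, an actin-binding regulator, had log2 ratios from 3.64 to 4.26. Ccl3, a macrophage chemokine, also met the rule for leading genes at 184 CPM and 130.3 CPM, and its place is taken up with the mixed barcodes below.

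Of the transcription factors, 8 of 24 were higher and 8 lower, with medians of -0.13 and 0.04. Besides the SOX genes, Sox8 had 16.4 CPM and 18.7 CPM, against 1.37 CPM and 2.12 CPM, and Foxc2, a forkhead factor of skeletal mesenchyme, had 74.8 CPM and 83.5 CPM, against 27.0 CPM and 19.2 CPM. Wwp2, a ubiquitin ligase and host of a SOX9-dependent microRNA, had 124 CPM and 167 CPM, against 13.9 CPM and 17.7 CPM. Runx1 was higher and Runx2, the bone factor, lay within the size limit at 130.3 CPM and 113 CPM, against 178 CPM and 163 CPM. Shox2, a limb and palate factor, was lower, at 12.1 CPM and 14.7 CPM, against 124 CPM and 103 CPM. The list as a whole was thus divided, with the SOX trio at one end and genes of undifferentiated mesenchyme at the other.

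The enzymes that build chondroitin sulfate were higher in 15 of 28 cases and lower in 2. Papss2, which makes the activated sulfate used to modify proteoglycans, had 806 CPM in Foxq1iECKO and 1037 CPM in Foxq1flox/flox cartilage cells, against 37.7 CPM and 35.2 CPM in mesenchyme. Slc26a2, which brings sulfate into the cell and is mutated in human chondrodysplasias, had 409.5 CPM and 482 CPM, against 43.0 CPM and 47.9 CPM. The chain-starting enzymes Xylt1 and Csgalnact1 had 252 CPM and 273 CPM in the Foxq1iECKO library and 303 CPM and 299 CPM in the Foxq1flox/flox library, with log2 ratios over mesenchyme from 2.59 to 4.26. Chst11, which adds sulfate to the chain, had 278 CPM and 330 CPM, against 31.2 CPM and 30.1 CPM. Ugdh, which supplies the sugar acid, had 656 CPM and 730.5 CPM, against 181 CPM and 150.1 CPM. Steps from sulfate import to the finished chain were therefore among the genes higher by size.

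Genes for folding and exporting collagen were higher in 23 of 42 cases and lower in 7. Plod2, a lysyl hydroxylase of collagen, had 1149.6 CPM in Foxq1iECKO and 1304 CPM in Foxq1flox/flox cartilage cells, against 247 CPM and 228 CPM in mesenchyme. P4ha1, a prolyl hydroxylase, had log2 ratios of 1.49 and 1.55, and Creb3l2, a membrane-bound factor that raises secretory capacity in chondrocytes, had 1.33 and 1.62. The crosslinking oxidases differed within their family. Loxl3 had 47.1 CPM and 63.9 CPM, against 4.65 CPM and 4.88 CPM, while Lox had 111 CPM and 90.4 CPM, against 633 CPM and 802 CPM. Of 19 genes of the unfolded protein response 7 were higher and 0 lower, with the chaperone Hspa5 at log2 ratios of 0.70 and 0.81. Of 30 genes of hypoxia and glycolysis 10 were higher and 2 lower, among them the hexokinase Hk2 at 1.34 and 1.68 and the glucose transporter Slc2a1 at 1.58 and 1.51.

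**Figure D2:**
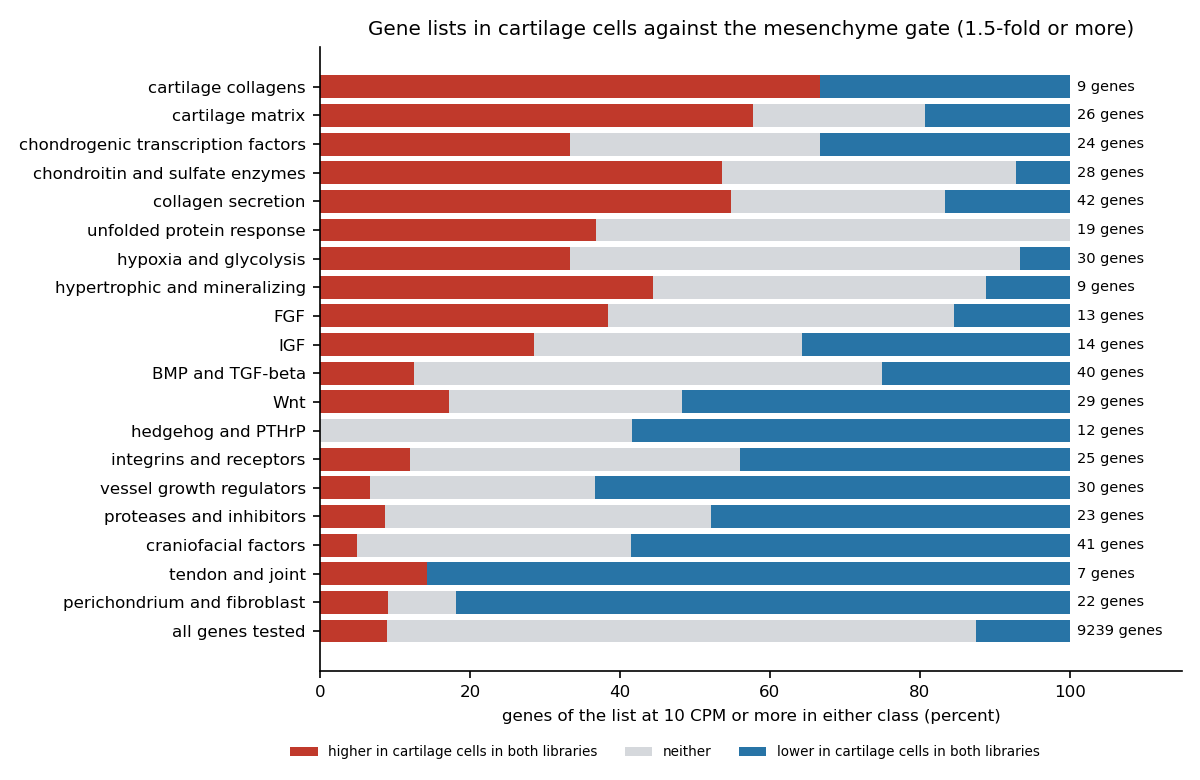
Percent of the measured genes of each list that were higher by size in cartilage cells than in mesenchyme in both libraries, lower in both, or neither, with the number of genes at the right and all genes as the last bar. The cartilage collagen list is 6 of 9 higher, and the fibroblast and perichondrium list 18 of 22 lower.

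Signals were read by role. Of the FGF genes, the receptor Fgfr3, which restrains chondrocyte growth, had 64.4 CPM in Foxq1iECKO and 73.2 CPM in Foxq1flox/flox cartilage cells, against 5.39 CPM and 5.62 CPM in mesenchyme. Fgfr2 had 603 CPM and 600.0 CPM, against 306 CPM and 293 CPM, and Fgfr1 lay within the size limit. The ligand Bmp2 had 255 CPM and 285 CPM, against 67.8 CPM and 47.1 CPM, and the receptor Bmpr1b had 46.3 CPM and 86.0 CPM, against 12.9 CPM and 14.8 CPM. Over all measured genes 8.96% were higher than in mesenchyme and 12.48% lower. Of 40 measured BMP and TGF-beta genes 5 were higher and 10 lower. Of 29 Wnt genes 5 were higher and 15 lower, with the secreted antagonist Sfrp1 at 1057 CPM and 1461 CPM, against 535 CPM and 470.1 CPM, and the ligand Wnt5a at 71.3 CPM and 82.3 CPM, against 319 CPM and 356 CPM.

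No gene of the hedgehog and PTHrP list at 10 CPM or more was higher, and 7 of 12 were lower. Ptch1, the hedgehog receptor and target, had 112 CPM in Foxq1iECKO and 119 CPM in Foxq1flox/flox cartilage cells, against 123 CPM and 111 CPM in mesenchyme. Ihh, the hedgehog ligand of maturing chondrocytes, was below that minimum, at 2.01 CPM and 2.40 CPM, against 0.21 CPM and 0 CPM in mesenchyme. Its ratio over mesenchyme was higher by size in both libraries, from few UMIs. Of the IGF genes, the imprinted noncoding RNA H19 had 2236 CPM and 2056 CPM, against 810.5 CPM and 675 CPM, and Igfbp5, a binding protein of IGFs, had 1369.8 CPM and 2388 CPM, against 623 CPM and 802 CPM.

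Marks of hypertrophy, the late stage before bone replaces cartilage, were few. Col10a1, the collagen of hypertrophic cartilage, had 0.34 CPM in Foxq1iECKO and 0.25 CPM in Foxq1flox/flox cartilage cells. Mmp13, Ibsp and Alpl, which belong to matrix breakdown and mineral, had at most 2.35 CPM in either library. Sp7, the osteoblast factor, had 7.38 CPM and 5.81 CPM. Higher by size than in mesenchyme were 4 of the 9 measured genes of that list: Spp1, Panx3, Ank and Mgp, of which Mgp and Ank encode restraints on mineral. Mgp had 333 CPM and 312 CPM, against 120.0 CPM and 108 CPM. Of 7 tendon and joint genes only Erg, a factor of joint-forming cartilage that is also expressed in endothelium, was higher, at 157 CPM and 172 CPM, against 52.0 CPM and 58.5 CPM.

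Position was read from Hox genes, which mark the trunk and hindbrain and are off in most of the head skeleton. None of the 33 listed Hox genes reached 10 CPM in cartilage cells, 18 were at 0 in both libraries, and their summed level was 7.21 CPM in Foxq1iECKO and 9.09 CPM in Foxq1flox/flox cartilage cells, against 55.4 CPM and 81.6 CPM in mesenchyme. Of 41 measured factors of the head skeleton and jaw 2 were higher than in mesenchyme, Six2 and Msx2, and 24 were lower. The jaw and palate factor Pax9 had 11.9 CPM in Foxq1iECKO and 10.99 CPM in Foxq1flox/flox cartilage cells, against 91.0 CPM and 108 CPM in mesenchyme. Lhx8, another factor of the jaw, had 3.02 CPM and 1.14 CPM, against 31.4 CPM and 22.9 CPM. Alx1, Alx4 and other head factors are named with the groups of cells below.

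Genes that act on vessels were mostly lower than in mesenchyme, 19 of 30, and 2 were higher. The chemokine Cxcl12 had 54.7 CPM in Foxq1iECKO and 42.9 CPM in Foxq1flox/flox cartilage cells, against 458 CPM and 412 CPM in mesenchyme. The vessel growth factor Vegfa lay within the size limit at 145 CPM and 151 CPM, against 179 CPM and 177 CPM. Col15a1, a collagen with an antiangiogenic fragment, had 206 CPM and 197 CPM, against 25.04 CPM and 21.6 CPM, and Angptl1, a secreted angiopoietin-like protein, was the other higher gene, with log2 ratios of 1.56 and 1.79. Cnmd, itself an inhibitor of vessel growth, belongs to the rule and its level is given above.

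The fibroblast and perichondrium genes, those of the sheath around cartilage, were lower in 18 of 22 cases; all 7 genes that defined mesenchyme are among the 22, so part of that count follows from the gate. The higher ones were Col14a1, at 412 CPM in Foxq1iECKO and 376 CPM in Foxq1flox/flox cartilage cells, against 163 CPM and 135 CPM, and Cthrc1, at 565 CPM and 539 CPM, against 191 CPM and 136 CPM. Col14a1 is a fibril-associated collagen and Cthrc1 a secreted protein of injured and growing connective tissue.

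Clustering the cartilage cells of both libraries together gave 10 groups, the subclusters of the plots, numbered by size. The 178 genes that passed the size limit between libraries were left out of the clustering so that group sizes could be set side by side; the leading genes of a group define it and are a description. Group 1, 268 Foxq1iECKO and 319 Foxq1flox/flox cells, was led by genes of mitosis, with Top2a at 1489 CPM, against 156 CPM in the other cartilage cells. Group 3, 195 and 203 cells, was led by Mybpc1, Hbegf and Epcam, with Hbegf, an EGF-family growth factor, at 193 CPM, against 39.7 CPM. Group 4, 141 and 132 cells, had the highest Matn1, at 4043 CPM, against 1063 CPM in the other cartilage cells, with Col2a1 at 3773 CPM and Acan at 1063 CPM. Group 6, 108 and 127 cells, led by Asb4 and Epyc, had Col2a1 at 3199 CPM, Matn3 at 259 CPM and the highest Ihh of the unmixed groups at 11.4 CPM, against 1.41 CPM. Groups 4 and 6 thus stood at the matrix-rich end.

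Group 5, 114 and 132 cells, was the fibroblast-like end, with Col1a1 at 9564 CPM, against 1018 CPM in the other cartilage cells, Thbs2 at 354 CPM, against 27.8 CPM, and Runx2 at 287 CPM, against 102 CPM. Its Col2a1 was 1384 CPM, against 2375 CPM, while its Sox9 was 2096 CPM, close to that of the other cells at 2029.7 CPM. Group 8, 41 and 43 cells, was led by Npr3, Dcn, Osr2 and Pax9, with Osr2 at 88.6 CPM, against 4.61 CPM, and Pax9 at 90.2 CPM, against 7.55 CPM; both are factors of palate and jaw mesenchyme.

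Group 2 differed most in size between libraries. It held 131 Foxq1iECKO cells, 12.02% [10.1, 14.1] of the cartilage cells, and 418 Foxq1flox/flox cells, 28.2% [25.9, 30.6]. Its leading genes were Car12, Hpse2, Tfap2a, Tbx3, Tfap2b, Sox10 and Igfbp5 among others, and 8 of its 10 leading genes were among those left out of the clustering. Tfap2b and Tfap2a encode AP-2 factors of neural crest, Sox10 is a neural crest factor, and Car12 is a carbonic anhydrase. Tfap2b had 196 CPM in group 2, against 58.1 CPM in the other cartilage cells, Sox10 had 70.4 CPM, against 18.7 CPM, Igfbp5 had 4378 CPM, against 1439 CPM, and Alx1, a head skeleton factor that the size limit did not take out, had 130 CPM, against 54.7 CPM. Col1a1 was lowest there among the unmixed groups, at 189 CPM. The other unmixed groups each held a larger share of the Foxq1iECKO than of the Foxq1flox/flox cartilage cells: 24.6% and 21.5% for group 1, 17.9% and 13.7% for group 3, 12.9% and 8.91% for group 4, 10.5% and 8.91% for group 5, 9.91% and 8.57% for group 6, and 3.76% and 2.90% for group 8. Since shares sum to the whole, a smaller group 2 raises the other shares.

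**Figure D3:**
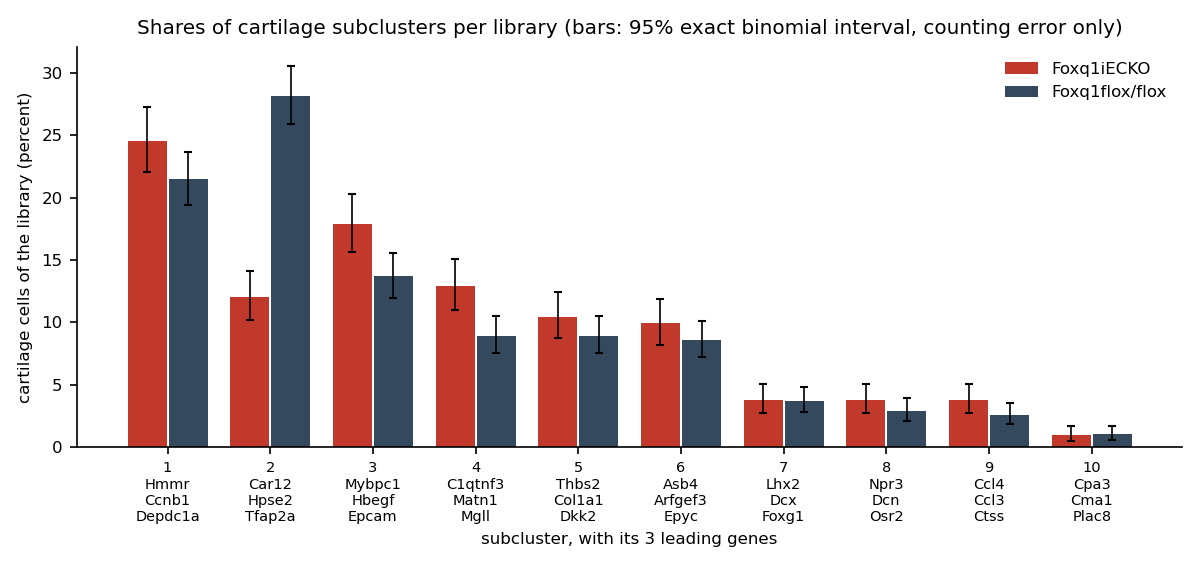
Share of the cartilage cells of each library in each of the 10 groups, in percent, with the 3 leading genes of each group; the error bars are exact binomial 95% intervals for counting error only. Group 2 is 12.02% of the Foxq1iECKO and 28.2% of the Foxq1flox/flox cartilage cells.

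**Figure D4:**
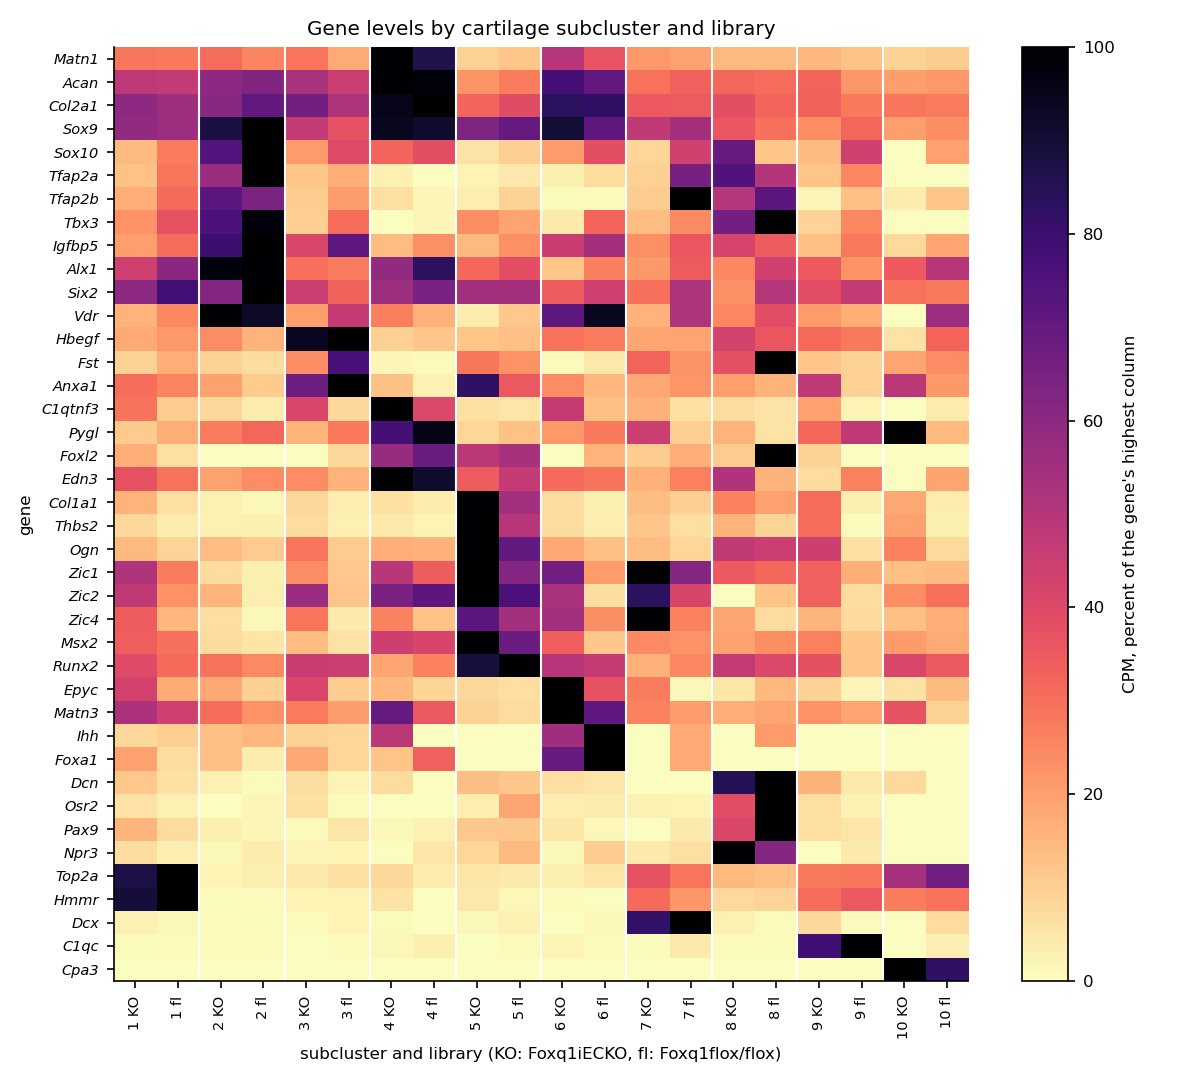
Summed level of each gene (rows) in each group and library (columns, the Foxq1iECKO column of a group left of its Foxq1flox/flox column), as percent of the highest column of that gene. Matn1 is darkest in group 4, Col1a1 and Thbs2 in group 5, and Tfap2a and Sox10 in group 2.

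Groups 7, 9 and 10 held 200 cells, 92 Foxq1iECKO and 108 Foxq1flox/flox, in which most barcodes were called doublets, 2 cells under 1 barcode: 57.3%, 72.2% and 60.0%. In group 7, 75.0% held at least 3 neuron genes, in group 9, 92.4% held at least 3 macrophage genes, and group 10 was led by mast cell and neutrophil genes such as Cpa3 and S100a8. Ccl3 had 2833 CPM in group 9 and 15.8 CPM in the other cartilage cells, so its place among the leading genes rested on that group. Over all cartilage cells the doublet share was 5.78% in the Foxq1iECKO and 5.40% in the Foxq1flox/flox library, against 3.94% and 3.83% of all kept barcodes. They stayed in the sums below except where stated. A UMI of 1 endothelial gene was found in 27.9% and 27.5% of cartilage cells, in 31.3% and 33.3% of mesenchyme and in 21.3% and 25.1% of neurons.

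Between genotypes, cartilage cells were 8.32% [7.85, 8.80] of kept barcodes in the Foxq1iECKO library and 10.6% [10.1, 11.2] in the Foxq1flox/flox library. Cells were sorted for CD31, so these shares are those of cells carried along with the sort and not of the tissue. Foxq1 itself (GRCm38, chr13:31556134-31560976, plus strand) was close to absent from cartilage cells, with 40 UMIs or 6.71 CPM [4.79, 9.13] in the Foxq1iECKO library and 60 UMIs or 7.58 CPM [5.78, 9.75] in the Foxq1flox/flox library, a log2 ratio of -0.18 [-0.79, 0.43]. In cells thinned to 2000 UMIs, a Foxq1 UMI was found in 1.37% and 1.35% of cartilage cells, in 1.68% and 1.52% of neurons and in 29.0% and 38.4% of endothelial cells. The share in cartilage cells lay near that of neurons, and whether it is background alone was not tested. A difference in Foxq1 between genotypes was not detectable in these cells.

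Of 6757 genes at 20 CPM or more in at least 1 library, 100 were higher (1.48%) and 78 lower (1.15%) by size in Foxq1iECKO than in Foxq1flox/flox cartilage cells. Most genes of the cartilage lists lay within the limit. Of the 23 measured transcription factors 0 passed it in either direction. Of 28 chondroitin and sulfate enzymes 1 was higher and 0 lower, and of 42 collagen secretion genes 1 was higher and 1 lower. Beside these counts stand 182 higher (2.11%) and 170 lower (1.97%) of 8645 genes at the 10 CPM used for lists. Col2a1 had a log2 ratio of -0.03, Sox9 of -0.11 and Col11a1 of 0.05. Of 26 matrix genes 4 were higher and 1 lower, with a median of 0.03 beside -0.03 over all genes; the higher ones were Epyc, Tnc, Dcn and Otor and the lower one Spon1. Sox5 and Sox6 had ratios of -0.43 and -0.29, within the limit.

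Fibroblast collagens stood apart from this. Col1a1 had 2833 CPM in Foxq1iECKO and 1128 CPM in Foxq1flox/flox cartilage cells, a log2 ratio of 1.33 [1.29, 1.37], beside 0.54 in mesenchyme. Col1a2 had 5409.6 CPM and 2968 CPM, a ratio of 0.87 [0.84, 0.89], beside 0.41 in mesenchyme. Its log2 ratio was also 0.47 in neurons, 1.07 [0.90, 1.24] in macrophages and 0.49 in endothelial cells. Col3a1 had 759.8 CPM and 399 CPM, a ratio of 0.93, beside 0.33. Of the 22 fibroblast and perichondrium genes 9 were higher and 0 lower, among them Col5a2, Ogn, Lum and Thbs2. The median log2 ratio of the 22 was 0.47, and 0.24 with all groups weighted equally. With the 7 unmixed groups weighted equally, a setting chosen after seeing the data, it was 0.11. The summed level of that list was 12650.3 CPM in Foxq1iECKO and 7520.8 CPM in Foxq1flox/flox cartilage cells, and 23249.7 CPM and 18915.1 CPM in mesenchyme. The 7 mesenchyme gate genes, all on that list, ran the other way in mesenchyme, at a summed 3236.7 CPM in Foxq1iECKO and 3658.8 CPM in Foxq1flox/flox cells. The difference in Col1a1 was present within groups of cells: in group 5 it had 12386.6 CPM in Foxq1iECKO and 6734 CPM in Foxq1flox/flox cells, and in group 2 it had 317 CPM and 152 CPM. It was also present among cells with all 6 cartilage genes, at 1032 CPM in Foxq1iECKO and 458 CPM in Foxq1flox/flox cells. In cells thinned to 2000 UMIs a Col1a1 UMI was found in 50.9% and 36.1% of cartilage cells, in 96.5% and 95.8% of mesenchyme and in 9.33% and 6.02% of neurons, which should lack it. The share in neurons thus moved the same way. Whether that share is free RNA alone, and what part it has in the result, was not tested.

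Of the 12 named genes higher by size, C1qtnf3, a secreted adipokine-like protein first known from cartilage, came first. It had 181 CPM in Foxq1iECKO and 56.6 CPM in Foxq1flox/flox cartilage cells, a log2 ratio of 1.68 [1.52, 1.84], beside 0.65 in mesenchyme. In group 4, which it led, it had 573 CPM and 232 CPM. Ecrg4, a secreted precursor peptide, had 36.6 CPM and 11.995 CPM, a ratio of 1.61 [1.25, 1.97], beside 1.65 in mesenchyme. In neurons it had 4.35 CPM and 0.14 CPM, a ratio of 5.01 [2.42, 10.4]. Its intervals in macrophages and endothelial cells include 0. Thbs2, a matricellular thrombospondin that restrains vessel growth, had 93.2 CPM and 35.0 CPM, a ratio of 1.41 [1.20, 1.63], beside 0.91 in mesenchyme. From lower levels, its ratio was 1.54 [0.23, 3.03] in neurons, 2.27 [0.49, 4.67] in macrophages and 0.85 [0.51, 1.19] in endothelial cells. Epyc, a small leucine-rich proteoglycan of cartilage, had 67.6 CPM and 26.8 CPM, a ratio of 1.34 [1.09, 1.58], beside 0.88 in mesenchyme. Tnc, the matrix protein tenascin, had 178 CPM and 99.6 CPM, a ratio of 0.84 [0.70, 0.97], beside -0.09 in mesenchyme. Its ratio was 0.58 in neurons, 0.36 [-0.15, 0.89] in macrophages and 0.17 in endothelial cells. For C1qtnf3 and Epyc the intervals in neurons, macrophages and endothelial cells include 0. All of these genes encode secreted proteins, and Thbs2, Epyc and Tnc belong to the matrix.

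The Zic genes, zinc finger factors of neural tube and head mesoderm, were higher together. Zic1 had 131 CPM in Foxq1iECKO and 62.1 CPM in Foxq1flox/flox cartilage cells, a log2 ratio of 1.08 [0.91, 1.24], beside 0.39 in mesenchyme. Zic4 had 194 UMIs in Foxq1iECKO and 99 UMIs in Foxq1flox/flox cartilage cells, a CPM ratio of 1.38 [1.02, 1.74], beside 0.97 in mesenchyme. Zic2 had 25.2 CPM and 11.7 CPM, a ratio of 1.10, beside 0.49 in mesenchyme. Zic1 and Zic4 share exon sequence on opposite strands, and the sources used here do not give the strand setting of the counting, so reads of the pair may not be told apart. In cells thinned to 2000 UMIs a Zic1 UMI was found in 19.3% of Foxq1iECKO and 8.85% of Foxq1flox/flox cartilage cells, in 18.2% and 14.9% of mesenchyme and in 22.5% and 22.4% of neurons. In endothelial cells the share was 13.5% and 6.31%. Neurons hold Zic1 in their own right, so no background could be read from them. In macrophages Zic1 had 10.5 CPM in Foxq1iECKO and 5.95 CPM in Foxq1flox/flox cells, a log2 ratio of 0.81 [0.27, 1.38]. Zic4 had log2 ratios of 1.95 [0.66, 3.51] in macrophages, 0.87 in endothelial cells and -0.02 in neurons. Zic2 had 0.87 in macrophages and 0.20 in endothelial cells, with intervals that include 0. The part of RNA from other cells in the Zic ratios was not tested. Pou3f3, a neural and head mesenchyme factor outside the ranking rule, had 132 CPM and 68.8 CPM, a ratio of 0.94, and is given because its values were seen to run with the Zic genes. The remaining higher genes were Ezr, a linker of membrane and actin, at 259.6 CPM and 129 CPM, Cldn11, a tight junction protein, at 49.1 CPM and 22.2 CPM, and Cmss1 at 129.6 CPM and 67.2 CPM. Their log2 ratios were 1.011, 1.14 and 0.95 in cartilage cells, beside 0.86, 0.76 and 0.61 in mesenchyme. That of Ezr was 0.92 in neurons, 0.02 in macrophages and 0.08 in endothelial cells. That of Cldn11 was -0.18 in neurons, 2.97 in macrophages, from 4.43 CPM and 0.57 CPM, and 0.88 in endothelial cells. That of Cmss1 was 0.63 in neurons, 0.70 in macrophages and 0.74 in endothelial cells.

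On the lower side were genes that mark neural crest. Tfap2a had 10.7 CPM in Foxq1iECKO and 26.3 CPM in Foxq1flox/flox cartilage cells, a log2 ratio of -1.29 [-1.72, -0.88], beside -0.58 in mesenchyme. Tfap2b had 51.8 CPM and 105 CPM, a ratio of -1.02 [-1.21, -0.83], beside -0.41. The AP-2 genes were lower in other classes too: Tfap2b had a log2 ratio of -1.16 [-1.28, -1.04] in neurons and -1.36 [-1.68, -1.05] in endothelial cells, and Tfap2a had -1.06 [-1.34, -0.78] in neurons and 0.05 [-0.54, 0.64] in endothelial cells. Pax3, a crest and muscle factor, had 21.1 CPM and 43.3 CPM, a ratio of -1.04, beside -0.17. Sox10 had 18.1 CPM and 34.8 CPM, a ratio of -0.94, and Erbb3, a neuregulin receptor of crest and glia, had 41.3 CPM and 77.4 CPM, a ratio of -0.91. Of the 4 measured genes of the neural crest and Schwann list, Sox10 and Erbb3 were lower and Fabp7 was higher. Tfap2a, Tfap2b and Sox10 are also leading genes of group 2, which was the smaller share of Foxq1iECKO cartilage cells. Within group 2 Tfap2b had 216 CPM in Foxq1iECKO and 191 CPM in Foxq1flox/flox cells, Sox10 had 55.3 CPM and 74.8 CPM, and Igfbp5 had 3663 CPM and 4585 CPM. With all groups weighted equally in both libraries, the ratio of Tfap2a was -0.68, that of Tfap2b -0.88, that of Sox10 -0.51 and that of Erbb3 -0.51. With the mixed groups 7, 9 and 10 left out and the other 7 weighted equally, a setting chosen after seeing the data, these ratios were -0.34, -0.32, -0.16 and -0.52, all of them under the size limit.

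The other lower genes were less tied to crest. Igfbp5 had 1369.8 CPM in Foxq1iECKO and 2388 CPM in Foxq1flox/flox cartilage cells, a log2 ratio of -0.80 [-0.84, -0.76], beside -0.37 in mesenchyme. Adam12, a membrane protease, had 26.5 CPM and 54.2 CPM, a ratio of -1.03, beside 0.46. Bmpr1b, the BMP receptor of cartilage condensations, had 46.3 CPM and 86.0 CPM, a ratio of -0.89, beside -0.20. Gpc6, a heparan sulfate proteoglycan whose human gene underlies a skeletal dysplasia, had 336 CPM and 554 CPM, a ratio of -0.72, beside -0.01. Malat1, a nuclear noncoding RNA, had 3093 CPM and 4881 CPM, a ratio of -0.66, beside -0.25. It was lower in the other classes too, at -0.45 in neurons, -0.23 in macrophages and -0.32 in endothelial cells. Tenm1, a teneurin, and Ehd3, a protein of membrane traffic, completed the 12 with ratios of -1.08 and -0.92, beside -0.57 and -0.10 in mesenchyme. Tenm1 also had -1.27 [-1.53, -1.02] in neurons, and -0.24 in macrophages and -0.38 in endothelial cells with intervals that include 0. With the 7 unmixed groups weighted equally, the ratio was -0.39 for Igfbp5, -0.50 for Ehd3 and -0.54 for Gpc6, under the size limit. In that setting it was -0.83 for Adam12, -0.86 for Bmpr1b, -0.99 for Tenm1 and -0.59 for Malat1, beyond 1.5-fold.

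**Figure D5:**
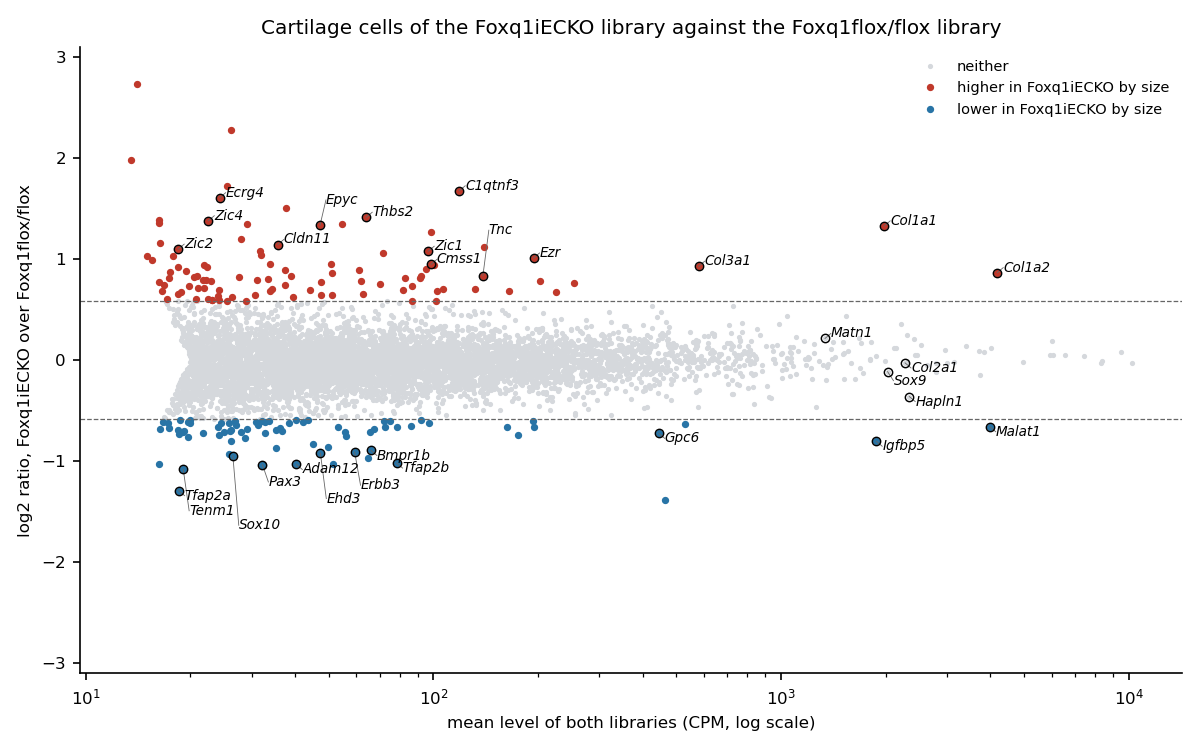
Log2 ratio of Foxq1iECKO over Foxq1flox/flox cartilage cells for each gene at 20 CPM or more in at least 1 library, against its mean level over the libraries in CPM on a log axis, coloured by the size rule and with named genes circled. Col2a1 and Sox9 lie near 0, C1qtnf3, Col1a1 and the Zic genes above, and Tfap2a, Tfap2b and Igfbp5 below.

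Across the 7 unmixed groups, which are cells of the same libraries and not replicates, 12 of the 24 named genes lay on the same side in all 7: C1qtnf3, Ecrg4, Zic4, Zic1, Ezr, Cldn11, Col1a2, Cmss1, Tnc, Adam12, Bmpr1b and Malat1. Thbs2, Epyc, Igfbp5, Pax3, Tenm1, Ehd3, Gpc6 and Sox10 did so in 6, and Zic2, Tfap2a, Tfap2b and Erbb3 in 5. Bmpr1b ranged from -1.79 to -0.40 over the groups and Tfap2b from -1.44 to 2.00. Of the 4 genes that did so in 5 groups, Tfap2a and Tfap2b were leading genes of group 2.

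The summed level of the G2/M list differed by less than the size limit. It was 7405.7 CPM in Foxq1iECKO and 6811 CPM in Foxq1flox/flox cartilage cells, a log2 ratio of 0.12 [0.10, 0.14]. A UMI of Mki67, a protein of cycling cells, was found in 30.0% [27.2, 32.9] and 24.6% [22.3, 26.9] of thinned cartilage cells. Within group 1 the G2/M level was 16128.6 CPM and 16553 CPM.

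Interferon-induced genes were higher in 8 of 18 measured cases and lower in 0, with a median of 0.47. Over all 8645 genes at 10 CPM or more, 2.11% were higher and 1.97% lower, with a median of -0.03. Rsad2, an antiviral enzyme, had 43.4 CPM in Foxq1iECKO and 8.96 CPM in Foxq1flox/flox cartilage cells, a log2 ratio of 2.28, and Cxcl10, a chemokine, had 139 CPM and 58.0 CPM, a ratio of 1.26. Both were high in the macrophage-mixed group 9. There Rsad2 had 630.5 CPM in Foxq1iECKO and 189 CPM in Foxq1flox/flox cells, against 2.88 CPM in the cartilage cells outside that group, and Cxcl10 had 1932 CPM and 1176 CPM, against 16.1 CPM. Without groups 7, 9 and 10 the median of the list was 0.085, and 108 genes were higher and 88 lower of 6661 in the remaining 998 Foxq1iECKO and 1374 Foxq1flox/flox cells. The 7 macrophage gate genes summed to 178 CPM in Foxq1iECKO and 141 CPM in Foxq1flox/flox cartilage cells, and B2m, the light chain of class I molecules that all cells make, had 194 CPM and 148 CPM. Erythroid genes ran the other way, with a sum of 7.38 CPM and 50.3 CPM in cartilage cells and 19.5 CPM and 80.0 CPM in mesenchyme.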

How the data were processed

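Cells of mouse tissue labelled brain at stage E12.5 were captured in microwells with barcoded beads after sorting with CD31 beads, per the labels' protocols. The deposited matrices hold raw UMI counts per barcode, not normalized. Per the submitters' processing notes the tools were STARsolo 2.7.11b and fastp 0.24.0, with the build mm10. The annotation, the strand setting and the barcode filter are not stated in those sources. Every deposited barcode held at least 500 UMIs. Of 58 named genes, 15 share exon sequence with a gene on the opposite strand in GENCODE M21.

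Within each library, counts of a class were added up and scaled to CPM. Levels have exact Poisson intervals, shares Clopper-Pearson intervals and ratios exact conditional binomial intervals, at 95%. They cover counting error only. Higher or lower by size means a ratio of at least 1.5 with an interval that excludes 1, for genes at 20 CPM or more in at least 1 library (10 CPM for lists and against mesenchyme). The members and gene lists were chosen with earlier results of these data known. Each gate of mesenchyme, neurons or macrophages needs 3 of its genes, at most 1 endothelial gene of the rule and no other gate.

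Doublets were called per library with Scrublet in scanpy 1.11.5 at an expected 8% and were kept. Members of both libraries were clustered together without batch correction (Leiden, igraph 0.11.9, 1500 variable genes, 20 components, 15 neighbours, resolution 0.6). Shares of cells with a UMI were compared after thinning each cell to 2000 UMIs. The 12 highest and 12 lowest genes between genotypes were named by the limit of the interval nearest to 0, without mitochondrial, ribosomal, haemoglobin, sex-linked and predicted genes and those at over 5 times the level in another class; the 25 genes farthest above mesenchyme at 50 CPM or more were also available, with up to 6 per list. Other genes in the text, such as Col1a1, Col3a1, Pou3f3 and those of the groups, were chosen after their values were seen. Scaling by DESeq2 1.42.0 size factors and edgeR 4.0.16 TMM, in R 4.3.3, served as alternatives only, and no count model was fitted. The size rule was also run on simulated Poisson counts. These hold no spread between libraries, so that run does not bear on differences between replicates. The scripts ran in Python 3.11.15 with pandas 2.3.3, scipy 1.17.1, matplotlib 3.10.9 and numpy 2.4.6.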

Additional observations from a re-analysis of the deposited data

Results flagged for a closer look

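In 4 genes past the size limit in cartilage cells the log2 ratio of Foxq1iECKO over Foxq1flox/flox had the opposite direction in mesenchyme, with counting intervals that exclude 0 in both. With 1 library per genotype the difference was not tested. Tnc had 0.84 [0.70, 0.97] in cartilage cells and -0.09 [-0.15, -0.02] in mesenchyme. Adam12, a membrane protease, had -1.03 [-1.30, -0.77] in cartilage cells and 0.46 [0.25, 0.67] in mesenchyme. The interferon-induced Ifit2 had 1.16 [0.56, 1.78] in cartilage cells and -0.40 [-0.74, -0.07] in mesenchyme. Rsad2 had 2.28 [1.89, 2.68] in cartilage cells and -0.86 [-1.28, -0.44] in mesenchyme, and stood at 431 CPM in the macrophage-mixed group 9, against 2.88 CPM in the other cartilage cells.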

How the results depend on the processing

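Without a minimum level, 532 genes were higher and 498 lower by size. Under the other settings the count of higher genes was 89 to 120 and that of lower genes 73 to 114. The median of the interferon list, 0.47 in the report, was 0.32 with doublets left out, 0.11 in cells with 0 endothelial genes, 0.27 with groups weighted equally, 0.66 without a minimum level and 0.085 without the mixed groups. The G2/M log2 ratio of 0.12 was 0.15 with at least 4 cartilage genes and 0.027 with groups weighted equally. The log2 ratio of the share of cartilage cells stayed between -0.41 and -0.35. Of the chondrogenic genes, 30 were higher than mesenchyme at a 2-fold limit and 49 were higher than all other kept barcodes. With groups weighted equally, 59 of the 100 higher and 35 of the 78 lower genes kept their call, without the mixed groups 78 and 72, and with 0 endothelial genes 74 and 55. Over 24 named genes and 10 alternatives, 220 of 240 log2 ratios lay within the counting interval of the reported value and 0 changed sign. Leaving out the mixed groups was chosen after seeing the data. Foxq1 was limited by its 40 and 60 UMIs, and its log2 ratio was 0.56 in cells with 0 endothelial genes. No paired analysis was possible because each genotype has 1 library.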
